A study of Mus musculus with 9 samples.

Results

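The genes of cholesterol and fatty acid synthesis were followed across 3 subsets of mouse splenic B cells as a set of 36 genes, taken as the rows of the expression table whose symbol matched a fixed list. The list holds enzymes of the mevalonate and sterol steps and the regulators that switch these enzymes on or hold them back. It also holds enzymes that make, desaturate and elongate fatty acids, and genes of sterol transport and sterol sensing. All 36 symbols were found, on 37 of the 24459 rows, because Hmgcs1 had 2 rows. Of the 36 genes, 32 had a mean of at least 0.5 FPKM (fragments scaled to transcript length and to library size) over the 9 libraries and were tested. Hmgcs1, Fads1, Fads2 and Nr1h3 lay under that minimum.

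Cells build cholesterol from acetyl-CoA through mevalonate, the isoprenoid pyrophosphates, squalene and lanosterol. When membrane sterol is low, Scap escorts the SREBP proteins out of the endoplasmic reticulum, where the Insig proteins otherwise hold them, and the released SREBP fragment drives the genes of sterol uptake and synthesis (mainly SREBP2, from Srebf2) or of fatty acid synthesis (mainly SREBP1, from Srebf1). When sterol is high, the LXR receptors bind oxysterols and raise the export pumps Abca1 and Abcg1. Lymphocytes are known to raise lipid synthesis when they are activated and divide.

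The libraries came from follicular B cells with high surface IgD (FO), from follicular B cells with low or no IgD (BDL) and from marginal zone (MZ) B cells. FO and BDL were sorted from the spleen as B220+ CD23+ CD93- cells with intermediate IgM and CD21, and MZ B cells as B220+ CD23- CD93- cells with high IgM and CD21. There were 3 libraries per subset, each from 1 sort of splenocytes pooled from 5 naive mice aged 8 to 10 weeks, and the labels give no treatment or allele for any subset. The strain is C57/BL6 by the labels and B10.PL by the study's text, a difference that was not tested. The sample titles hold 3 dates with 1 library of each subset per date, and a replicate number stands for 1 of these dates. A library measures a sorted population in bulk, so that fewer cells of a type and less RNA per cell cannot be told apart. The transcript of IgD, the marker that separates BDL from FO B cells, was not analysed here.

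The 6 pan B cell genes listed summed to 3130 to 4610 FPKM per library. Fcer2a, which encodes the sort marker CD23, was at 26 to 34.5 FPKM in MZ B cells and at 389 FPKM or more in each other library, whereas Cr2, which encodes CD21, was at 400 FPKM or more in MZ B cells and at 150 or less in the other libraries. The summed FPKM of the T cell genes Cd3e, Cd3d, Cd4 and Cd8a stayed between 0.544 and 1.53. The 5 myeloid genes in the table summed to 2.56 to 4.81 FPKM in FO, 5.87 to 8.19 in BDL and 3.62 to 6.78 in MZ B cells, and Cd14 was listed at 0 in FO 2. The erythroid genes summed to 1.84 to 4.01 FPKM in FO, 6.74 to 7.93 in BDL and 2.94 to 5.44 in MZ B cells. Both lists were highest in mean in BDL, and their part in the BDL values of the members was not tested. BDL 2 correlated least with the other libraries of its subset across all tested genes, with a mean Pearson r of 0.889 as compared to 0.900 to 0.916 for the other 8 libraries. At the estimated depth, 0.0136 to 0.0185 FPKM corresponded to a single fragment per kilobase of transcript.

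To show the DNA just before the start of members that the comparisons below turn on, the 250 bases upstream of the start are printed for Srebf2, Lss, Idi1 and Cyp51. Among the members with an entry in the promoter table that passed the test in both comparisons with MZ B cells, these had the largest log2 fold changes between BDL and MZ B cells. The sequences are those of RefSeq on GRCm38.p6, written 5′ to 3′ on the strand of the gene, with the CCAAT box, the motif bound by NF-Y, in capitals where it or its reverse complement ATTGG occurs.
Srebf2: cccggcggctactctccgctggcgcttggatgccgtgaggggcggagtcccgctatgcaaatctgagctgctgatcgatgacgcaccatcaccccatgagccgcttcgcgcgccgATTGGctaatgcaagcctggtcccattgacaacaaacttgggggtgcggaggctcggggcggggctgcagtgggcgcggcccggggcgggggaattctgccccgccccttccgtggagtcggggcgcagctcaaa
Lss: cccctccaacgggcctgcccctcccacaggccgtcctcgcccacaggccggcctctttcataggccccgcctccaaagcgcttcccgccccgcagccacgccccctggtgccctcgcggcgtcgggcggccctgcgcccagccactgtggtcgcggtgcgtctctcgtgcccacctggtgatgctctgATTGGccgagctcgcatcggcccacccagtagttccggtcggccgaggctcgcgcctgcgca
Idi1: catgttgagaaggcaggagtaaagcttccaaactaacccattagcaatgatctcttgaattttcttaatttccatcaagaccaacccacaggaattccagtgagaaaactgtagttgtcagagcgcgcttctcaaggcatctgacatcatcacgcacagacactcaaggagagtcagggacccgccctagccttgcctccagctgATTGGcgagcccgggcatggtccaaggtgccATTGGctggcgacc
Cyp51: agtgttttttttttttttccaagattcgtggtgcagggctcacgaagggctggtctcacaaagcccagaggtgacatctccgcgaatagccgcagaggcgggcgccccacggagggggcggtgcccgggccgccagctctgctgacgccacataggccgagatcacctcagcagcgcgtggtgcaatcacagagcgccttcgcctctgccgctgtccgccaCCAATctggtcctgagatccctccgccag
On GRCm38.p6 these stretches lie at chr15:82147019-82147268 on the plus strand (Srebf2), chr10:76531355-76531604 on the plus strand (Lss), chr13:8885356-8885605 on the plus strand (Idi1) and chr5:4104698-4104947 on the minus strand (Cyp51). The CCAAT box nearest to the start ended 130 bases before it in Srebf2, 57 in Lss, 9 in Idi1 and 24 in Cyp51. Idi1 held 2 boxes, the other one 40 bases before the start. The promoter table had 38 promoters of 28 of the 36 members, and Sqle, Fdps, Fdft1, Scd1, Scd2, Fads1, Stard4 and Abcg1 had no entry. Searched on both strands with overlaps between motifs allowed, CCAAT occurred in 20 of these 38 promoters (52.6%), as compared to 33.8% of all 32851 promoters of the same length. The GC box GGGCGG, the motif of Sp1, occurred in 25 of the 38 (65.8%) as compared to 32.7% of all. The SREBP motif, searched only as the exact string TCACNCCAC, occurred in 1 (2.63%), that of Hmgcs1, as compared to 1.05% of all. Variants of this motif were not searched, so a promoter without a match may still hold an SREBP site. These are matches of letters in a window and not measured binding.

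In the comparison of BDL with MZ B cells, 9 of the 15 tested enzymes of the mevalonate and sterol steps were higher in BDL (Pmvk, Idi1, Fdps, Fdft1, Sqle, Lss, Cyp51, Sc5d and Dhcr7) and 0 were lower. Sqle, which makes squalene epoxide, was 2.99-fold and Fdps, which makes farnesyl pyrophosphate, 2.17-fold higher in BDL. By limma on log2(FPKM + 0.1), with p-values adjusted over all 11597 rows tested, 15 of the 32 tested members were higher in BDL at an adjusted p under 0.05, where 16.5% of all rows were. Elovl6 and Abcg1 were lower in BDL, 2 members of 32, where 11.6% of all rows were. With a change of at least 2-fold also required, Sqle and Fdps were higher (3.47% of all rows) and 0 members were lower (4.34% of all rows), and at an unadjusted p under 0.05 by limma 19 members were higher and 3 lower, where 39.9% of all rows passed in either direction. The median log2 fold change was 0.31 over the members and 0.06 over all rows. The FPKM of 17 members lay above and of 2 members below those in MZ B cells without overlap, as compared to 22.6% and 16.4% of all rows. Without MZ 1, 10 members passed in place of 17, 9 of them higher.

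Sterol enzymes such as Sqle and Cyp51, the regulators Srebf2 and Insig1 and the export pump Abca1 were lower in MZ relative to FO B cells. Of the 32 members, 13 fell in MZ relative to FO B cells at an adjusted p under 0.05 (12.8% of all rows) and 3 were higher, Scd2, Elovl6 and Abcg1 (14.3% of all rows). With at least 2-fold, Sqle and Abca1 were lower (3.39% of all rows) and Scd2 was higher (5.54% of all rows). The median log2 fold change was -0.27 over the members and -0.01 over all rows. Without overlap of the FPKM, 18 members were lower and 7 higher in MZ B cells, as compared to 22.5% and 23.6% of all rows. This comparison shares its MZ libraries with the previous one, so the values of each are given side by side and the counts are not independent.

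Few members passed the test between BDL and FO B cells. Elovl6, a fatty acid elongase, and Scd2, a stearoyl-CoA desaturase, were 1.48-fold and 1.70-fold higher in BDL, and were the 2 members of 32 past an adjusted p of 0.05 (6.04% of all rows were higher), while 0 were lower (1.68% of all rows). At an unadjusted p under 0.05 by limma, 7 members were higher and 1 lower, 8 of 32 in all, where 24.3% of all rows passed in either direction. With at least 2-fold, 0 members were called in either direction, where 1.64% of all rows were higher and 0.267% lower. The median log2 fold change was 0.12 over the members and 0.05 over all rows. The FPKM of 10 members lay above and of 1 member, Abca1, below those in FO B cells without overlap, as compared to 24.4% and 10.3% of all rows. Without any one of FO 1, FO 2, FO 3, BDL 1 and BDL 3, 0 members passed, and 1 did without BDL 2 or without MZ 1. In these fits the log2 fold changes were 0.51 to 0.62 for Elovl6 and 0.66 to 0.86 for Scd2, and the rows that passed in all fell from 896 to between 335 and 754. With the date in the sample titles as a replicate block, 7 members passed, 6 higher (Elovl6, Scd2, Dhcr7, Acly, Fdps and Acaca) and 1 lower (Abca1), where 20.5% of all rows passed in either direction.

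**Figure D1:**
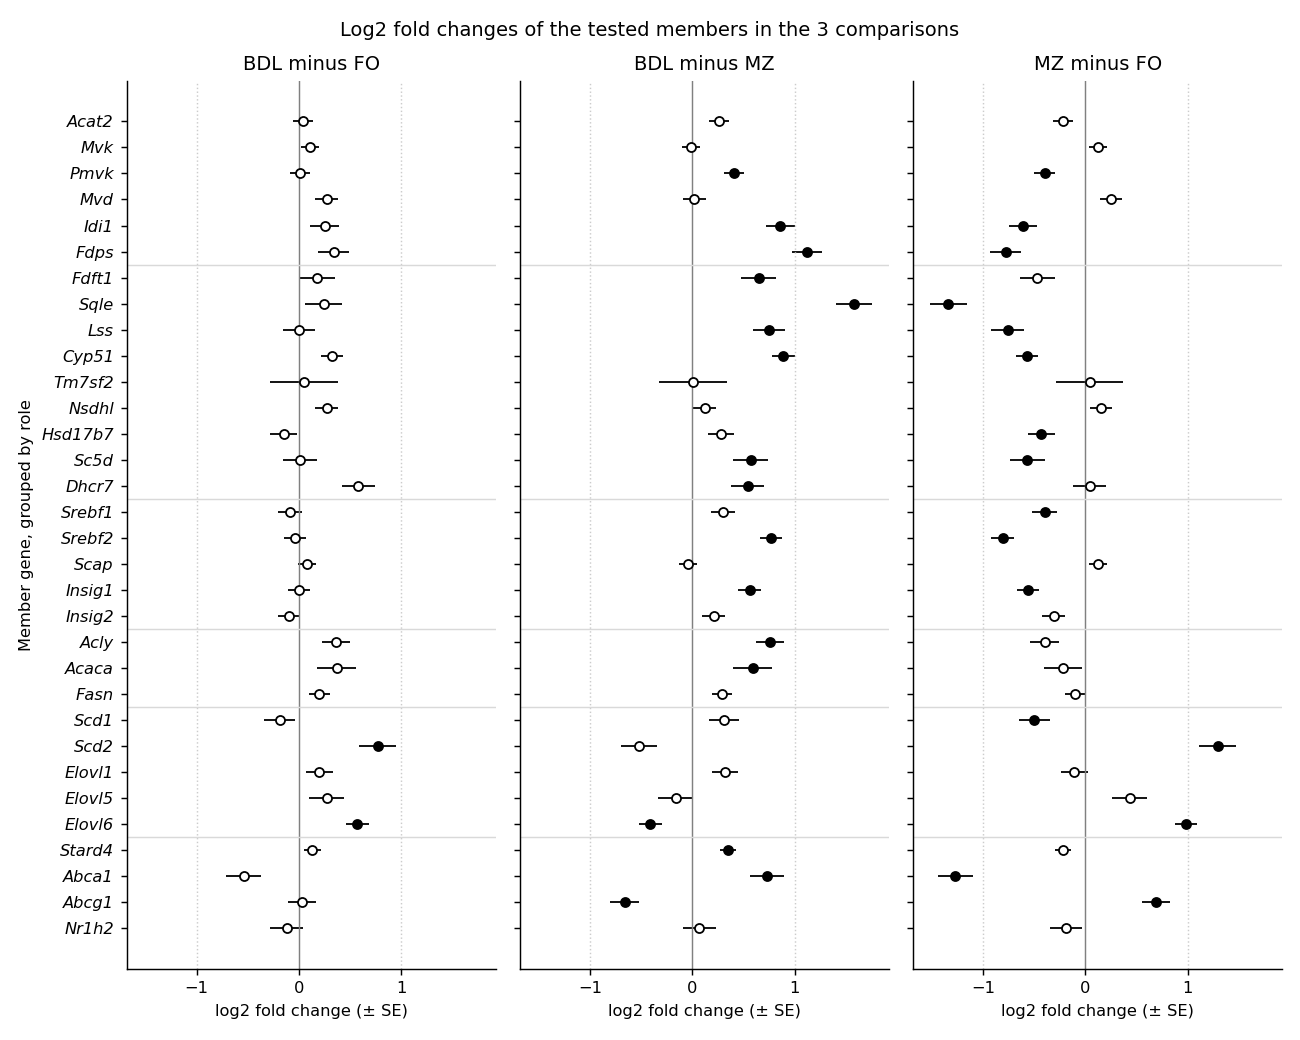
Log2 fold changes of FPKM + 0.1 from limma for the 32 tested members (rows, grouped by role) in BDL minus FO, BDL minus MZ and MZ minus FO, with bars for 1 standard error and filled points for an adjusted p under 0.05. Filled points lie right of 0 for 15 members in BDL minus MZ and left of 0 for 13 in MZ minus FO, and only Scd2 and Elovl6 are filled in BDL minus FO.

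The position of BDL between the other subsets varied with the gene. The mean of log2(FPKM + 0.1) in BDL was above both other subsets for 17 of the 32 members, between them for 15 and below both for 0, as compared to 38.1%, 36.6% and 25.3% of all rows. Of the 15 mevalonate and sterol enzymes, 12 had their highest mean in BDL, and Hsd17b7, Lss and Mvk lay between FO and MZ B cells. Between BDL and FO B cells, 0 of the 15 passed an adjusted p of 0.05 by limma (6.04% of all rows were higher in BDL). The FPKM of 4 lay above FO without overlap (24.4% of all rows). For Pmvk and Sc5d, which are among the 12, the log2 fold change in BDL over FO B cells was only 0.01. All 5 regulators lay between the other subsets, but their log2 fold changes in BDL over FO B cells were only -0.10 (Insig2) to 0.08 (Scap). For Lss, also between, it was 0. Summarised over the 15 enzymes as the median of log2(FPKM + 0.1) after subtracting the mean of each gene over the 9 libraries, the level was 0.33, 0.23 and 0.19 in BDL 1 to 3, 0.13, 0.07 and 0 in FO 1 to 3, and -0.27, -0.33 and -0.38 in MZ 1 to 3. The 3 subsets did not overlap in this summary, but BDL 3 (0.19) and FO 1 (0.13) lay close together. The median log2 fold change of all rows in BDL over FO B cells was itself 0.05, and -0.02 under upper quartile scaling. Whether the summary keeps BDL and FO apart under another scaling was not tested. Over 21 tested cell cycle genes the same summary was -0.39 to -0.32 in FO, 0.19 to 0.32 in BDL and 0.10 to 0.40 in MZ B cells, so that both BDL and MZ B cells stood above FO B cells. The part of cell cycle genes in the sterol values was not tested.

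**Figure D2:**
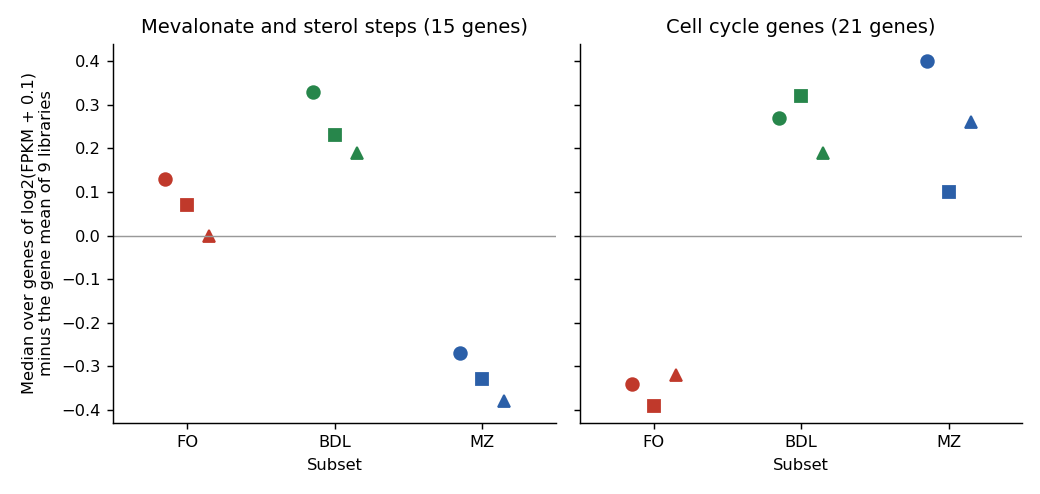
Median over genes of log2(FPKM + 0.1) minus the gene's mean over the 9 libraries, for the 15 mevalonate and sterol enzymes and for 21 cell cycle genes, with 1 point per library (circle, square and triangle for replicates 1, 2 and 3). The enzymes are lowest in the 3 MZ libraries (-0.38 to -0.27), whereas the cell cycle genes are lowest in the 3 FO libraries (-0.39 to -0.32).

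The mevalonate steps turn acetyl-CoA into farnesyl pyrophosphate. Of the 6 tested enzymes, Pmvk, Idi1 and Fdps were higher in BDL than in MZ B cells (16.5% of all rows). The same enzymes were lower in MZ relative to FO B cells (12.8% of all rows). Between BDL and FO B cells 0 passed, where 6.04% of all rows were higher and 1.68% lower in BDL. Fdps (chromosome 3, 88897514 to 88905881 on NCBIM37, the assembly also called mm9) had 12.2, 11.7 and 10.3 FPKM in FO 1 to 3, 15.5, 15.4 and 12.5 in BDL 1 to 3 and 6.34, 7.98 and 5.58 in MZ 1 to 3. The 3 subsets did not overlap, with BDL highest and MZ lowest. The means were 11.4 ± 1.01 (SD, n = 3) in FO, 14.4 ± 1.72 (SD, n = 3) in BDL and 6.63 ± 1.23 (SD, n = 3) in MZ B cells. Fdps had a log2 fold change of 1.12 (SE 0.15, adjusted p = 8.77e-04) in BDL over MZ and -0.78 (SE 0.15, adjusted p = 0.00506) in MZ over FO B cells. In BDL over FO B cells it was 0.34 (adjusted p = 0.21), and the replicate block brought that adjusted p to 0.0435.

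Idi1 (chromosome 13, 8884852 to 8891641), the isomerase that makes the allylic unit for Fdps, had 4.68, 4.49 and 4.78 FPKM in FO 1 to 3, 5.59, 6.75 and 4.53 in BDL 1 to 3 and 3.25, 2.88 and 2.93 in MZ 1 to 3. The MZ libraries lay below all others, while BDL 3 fell within the range of FO B cells. Idi1 was 1.81-fold higher in BDL than in MZ B cells (log2 0.86, SE 0.14, adjusted p = 0.00222) and 1.52-fold lower in MZ relative to FO B cells (log2 -0.61, SE 0.14, adjusted p = 0.0115). Pmvk, which phosphorylates phosphomevalonate, had 13.5, 11.9 and 12.6 FPKM in FO 1 to 3, 13, 11.3 and 14 in BDL 1 to 3 and 9.58, 9.19 and 9.91 in MZ 1 to 3. FO and BDL overlapped and MZ lay below both, with log2 fold changes of 0.41 (SE 0.10, adjusted p = 0.0141) in BDL over MZ and -0.40 (SE 0.10, adjusted p = 0.015) in MZ over FO B cells. The Pmvk call in MZ over FO was lost without FO 1 (adjusted p = 0.0636), and that in BDL over MZ under upper quartile scaling (log2 0.31, adjusted p = 0.0616).

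Mvk, Mvd and Acat2 passed in no comparison. Mvk, mevalonate kinase and the tested mevalonate enzyme with the lowest mean, had 2.96 to 3.32 FPKM in FO, 3.21 to 3.68 in BDL and 3.33 to 3.55 in MZ B cells, with log2 fold changes from -0.01 to 0.12. Mvd, the decarboxylase, had 4.09 to 4.80 FPKM in FO, 5.12 to 6.14 in BDL and 4.82 to 5.88 in MZ B cells, so that FO was lowest, with log2 fold changes of 0.27 in BDL over FO (adjusted p = 0.184) and 0.25 in MZ over FO B cells (adjusted p = 0.14). Acat2, which joins acetyl-CoA units, had 6.52 to 6.85 FPKM in FO, 6.40 to 7.49 in BDL and 5.21 to 6.48 in MZ B cells, which lay below FO without overlap. With the replicate block Acat2 passed in BDL over MZ (adjusted p = 0.0187) and in MZ over FO B cells (adjusted p = 0.0348). Both rows of Hmgcs1, the HMG-CoA synthase, were listed at 0 in all 9 libraries, as were 5941 rows of the table. A gene that sterol-making cells use can be listed at 0 by a failed estimate, so that no level is drawn from it.

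The sterol steps run from squalene to cholesterol. Of the 9 enzymes, 6 were higher in BDL than in MZ B cells (16.5% of all rows) and 5 lower in MZ relative to FO B cells (12.8%). Between BDL and FO B cells 0 passed, where 6.04% of all rows were higher and 1.68% lower in BDL. Sqle (chromosome 15, 59146632 to 59162747), squalene epoxidase, had 5.63, 6.41 and 5.34 FPKM in FO 1 to 3, 6.92, 8.79 and 5.31 in BDL 1 to 3 and 2.42, 2.32 and 1.97 in MZ 1 to 3. The MZ libraries lay far below the others, and BDL 3 lay just under the lowest FO library. The means were 5.80 ± 0.556 (SD, n = 3) in FO, 7.01 ± 1.74 (SD, n = 3) in BDL and 2.24 ± 0.237 (SD, n = 3) in MZ B cells. Sqle had the largest log2 fold changes of the members tested in both comparisons with MZ B cells, 1.58 in BDL over MZ (SE 0.18, adjusted p = 3.38e-04) and -1.34 in MZ over FO B cells (SE 0.18, adjusted p = 7.89e-04). Over the 18 alternatives these ranged from 1.29 to 1.76 and from -1.47 to -1.07.

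Cyp51 (chromosome 5, 4081145 to 4104746), lanosterol demethylase, had 5.60, 5.61 and 5.63 FPKM in FO 1 to 3, 6.67, 8.27 and 6.32 in BDL 1 to 3 and 3.43, 3.8 and 4.04 in MZ 1 to 3. The 3 subsets did not overlap, in the order BDL, FO and MZ. The log2 fold change was 0.89 in BDL over MZ (SE 0.11, adjusted p = 6.47e-04), -0.57 in MZ over FO (SE 0.11, adjusted p = 0.00601) and 0.32 in BDL over FO B cells (SE 0.11, adjusted p = 0.12). Lss (chromosome 10, 75994333 to 76019883), lanosterol synthase, had 4.35, 4.40 and 3.03 FPKM in FO 1 to 3, 4.58, 3.41 and 3.69 in BDL 1 to 3 and 2.30, 2.31 and 2.15 in MZ 1 to 3. FO and BDL overlapped and MZ lay below both. Lss was 1.69-fold higher in BDL than in MZ (log2 0.75, SE 0.16, adjusted p = 0.0105) and 1.69-fold lower in MZ relative to FO B cells (log2 -0.76, SE 0.16, adjusted p = 0.0101), and the latter call was lost without the 3 libraries of the date of BDL 2 (adjusted p = 0.0688). Its exons overlap 4930483K19Rik on the other strand.

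Fdft1, squalene synthase, had 4.95, 5.05 and 4.39 FPKM in FO 1 to 3, 5.81, 6.34 and 4.35 in BDL 1 to 3 and 3.25, 4.15 and 3 in MZ 1 to 3. MZ lay below the other subsets, which overlapped. Fdft1 had a log2 fold change of 0.65 in BDL over MZ (SE 0.17, adjusted p = 0.0212) and -0.47 in MZ over FO B cells (SE 0.17, adjusted p = 0.072, or 0.00953 with the replicate block). The first call was lost without BDL 1, BDL 2, MZ 1 or MZ 3 (adjusted p between 0.0551 and 0.0778), and exons of Fdft1 overlap Ctsb on the other strand. Dhcr7, which completes cholesterol by reducing its precursor, had 5.56, 6.07 and 4.21 FPKM in FO 1 to 3, 8.28, 8.39 and 7.01 in BDL 1 to 3 and 5.48, 6.23 and 4.57 in MZ 1 to 3. It differed from the other sterol enzymes in that FO and MZ overlapped and BDL lay above both. For Dhcr7 the log2 fold change was 0.54 in BDL over MZ (SE 0.16, adjusted p = 0.0401), a call lost without FO 1, BDL 1, BDL 2, MZ 1 or MZ 3 (adjusted p between 0.0621 and 0.134). In BDL over FO B cells it was 0.58 (SE 0.16, adjusted p = 0.0689, or 0.00517 with the replicate block).

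Sc5d, a desaturase late in the pathway and the sterol enzyme with the highest mean, had 8.77, 7.92 and 9.29 FPKM in FO 1 to 3, 9.51, 6.62 and 10.4 in BDL 1 to 3 and 6.18, 5.01 and 6.33 in MZ 1 to 3. Replicate 2 was the lowest library of each subset, and MZ did not overlap with the others. For Sc5d the log2 fold change was 0.57 in BDL over MZ (SE 0.17, adjusted p = 0.0399) and -0.57 in MZ over FO B cells (SE 0.17, adjusted p = 0.0427). The first call was lost without any one library but BDL 2 (adjusted p between 0.0597 and 0.117), and the second without any one library but BDL 2 and BDL 3 (between 0.0623 and 0.125). Hsd17b7, a sterol ketoreductase with the lowest mean of the sterol enzymes, had 2.28, 2.52 and 2.40 FPKM in FO 1 to 3, 2.08, 2.43 and 1.95 in BDL 1 to 3 and 1.76, 2.04 and 1.49 in MZ 1 to 3. Hsd17b7 was 1.35-fold lower in MZ relative to FO B cells (log2 -0.43, SE 0.13, adjusted p = 0.0454), a call lost without FO 1, FO 2, FO 3, BDL 1, BDL 3, MZ 1 or MZ 3 (adjusted p between 0.0564 and 0.144). Nsdhl had 4.58 to 5.18 FPKM in FO, 5.13 to 6.49 in BDL and 5.09 to 5.88 in MZ B cells and passed in no comparison. Tm7sf2 had 2.11 to 2.47 FPKM in FO, 1.28 to 3.38 in BDL and 1.74 to 2.78 in MZ B cells and passed in none, with the BDL minimum in BDL 2.

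**Figure D3:**
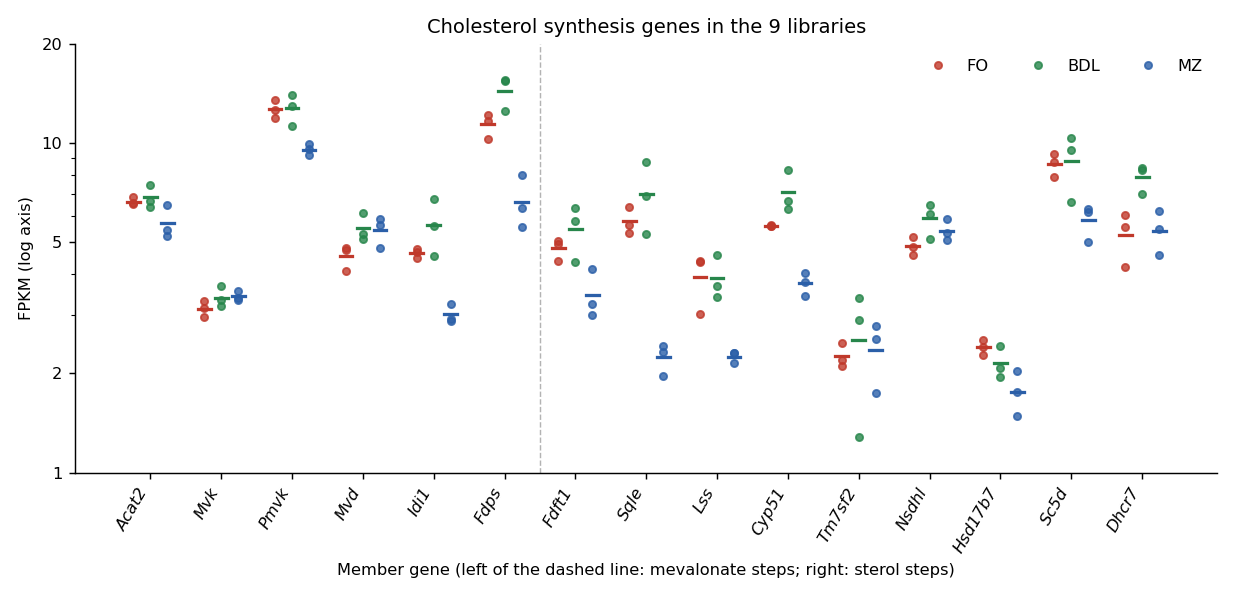
FPKM on a log axis for the 15 tested enzymes of the mevalonate steps (left of the dashed line) and sterol steps (right), with 1 point per library and a bar at the mean of each subset (FO red, BDL green, MZ blue). The MZ points lie below all FO points for 10 of the 15 enzymes (22.5% of all rows). They lie above all FO points for Mvk and Mvd (23.6% of all rows). The gap is widest for Sqle (1.97 to 2.42 in MZ against 5.34 to 6.41 FPKM in FO B cells).

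Among the regulators, Srebf2 was the most abundant per length and fell in MZ B cells. Srebf2 (chromosome 15, 81977696 to 82035806) had 76.3, 80.7 and 66.3 FPKM in FO 1 to 3, 71.0, 80.8 and 65.6 in BDL 1 to 3 and 40.9, 46.0 and 40.2 in MZ 1 to 3. FO and BDL overlapped throughout their range, and the highest MZ library lay well below the lowest library of the others. The means were 74.5 ± 7.37 (SD, n = 3) in FO, 72.5 ± 7.69 (SD, n = 3) in BDL and 42.4 ± 3.19 (SD, n = 3) in MZ B cells. Srebf2 was 1.75-fold lower in MZ than in FO (log2 -0.81, SE 0.11, adjusted p = 0.00109) and 1.71-fold higher in BDL than in MZ B cells (log2 0.77, SE 0.11, adjusted p = 0.00159). Between BDL and FO B cells its log2 fold change was -0.04 (SE 0.11, adjusted p = 0.861). The sequence before its start, printed above, held 4 matches to the GC box besides the CCAAT box.

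Insig1 (chromosome 5, 28397952 to 28405201), which holds back SREBP and is itself an SREBP target, had 15.9, 16.1 and 16.9 FPKM in FO 1 to 3, 18.0, 13.6 and 17.7 in BDL 1 to 3 and 11.2, 10.5 and 11.5 in MZ 1 to 3. BDL 2 was lowest of its subset but still above every MZ library. Insig1 had a log2 fold change of 0.56 in BDL over MZ (SE 0.11, adjusted p = 0.00738) and -0.56 in MZ over FO B cells (SE 0.11, adjusted p = 0.00691). Srebf1, whose product favours fatty acid genes, had 18.4, 17.2 and 14.3 FPKM in FO 1 to 3, 17.6, 14.0 and 15.1 in BDL 1 to 3 and 12.8, 13 and 11.9 in MZ 1 to 3. Srebf1 was 1.32-fold lower in MZ relative to FO B cells (log2 -0.40, SE 0.12, adjusted p = 0.0402), a call lost without FO 1, FO 2, BDL 3 or any one MZ library (adjusted p between 0.0614 and 0.139). In BDL over MZ B cells its log2 fold change was 0.30 (adjusted p = 0.0958, or 0.0364 with the replicate block), and its exons overlap Rai1 on the other strand.

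Insig2, the regulator with the lowest mean, had 5.88, 5.32 and 5.41 FPKM in FO 1 to 3, 5.67, 4.45 and 5.41 in BDL 1 to 3 and 4.73, 4.45 and 4.17 in MZ 1 to 3. Its log2 fold change in MZ over FO B cells was -0.31 (SE 0.11, adjusted p = 0.0627, or 0.0255 with the replicate block). Scap, the escort of SREBP, had 15.4 to 17.6 FPKM in FO, 15.8 to 18.7 in BDL and 17.8 to 18.7 in MZ B cells. Unlike Srebf2 and Insig1, Scap was not lower in the MZ libraries, with log2 fold changes of 0.12 in MZ over FO (SE 0.09, adjusted p = 0.399) and -0.04 in BDL over MZ B cells (SE 0.09, adjusted p = 0.781). Its exons overlap 5830462I19Rik on the other strand.

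The 3 enzymes that make palmitate from citrate were highest in BDL, above every FO and every MZ library. Without overlap, 24.4% of all rows in BDL lay above FO and 22.6% above MZ B cells. Between BDL and FO B cells 0 of the 3 passed an adjusted p of 0.05 by limma, where 6.04% of all rows were higher. Acly (chromosome 11, 100337667 to 100389314), which splits citrate into acetyl-CoA, had 43.1, 44.8 and 41.2 FPKM in FO 1 to 3, 51.0, 66.9 and 49.3 in BDL 1 to 3 and 30.3, 37.9 and 30.1 in MZ 1 to 3. The subsets did not overlap, with BDL 2 the highest library. Acly was 1.69-fold higher in BDL than in MZ B cells (log2 0.76, SE 0.14, adjusted p = 0.00474). Its log2 fold change was 0.36 in BDL over FO (SE 0.14, adjusted p = 0.158, or 0.0299 with the replicate block) and -0.40 in MZ over FO B cells (SE 0.14, adjusted p = 0.0687, or 0.0108 with the replicate block).

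Acaca, the acetyl-CoA carboxylase that commits carbon to fatty acids, had 5.36, 5.91 and 5.17 FPKM in FO 1 to 3, 6.09, 9.51 and 6.18 in BDL 1 to 3 and 4.30, 5.70 and 4.19 in MZ 1 to 3. Replicate 2 was the highest library of each subset, by most in BDL. The log2 fold change of Acaca was 0.59 in BDL over MZ (SE 0.19, adjusted p = 0.0495), a call lost without any one library but MZ 2 (adjusted p between 0.0541 and 0.155), and 0.37 in BDL over FO B cells (adjusted p = 0.271, or 0.0483 with the replicate block). Its exons overlap Gm17722 on the other strand. Fasn, fatty acid synthase, had 11.8 to 14.5 FPKM in FO, 14.7 to 16.3 in BDL and 11.8 to 13.6 in MZ B cells. Its log2 fold change was 0.29 in BDL over MZ B cells (SE 0.10, adjusted p = 0.0604, or 0.0222 with the replicate block) and 0.20 in BDL over FO B cells (SE 0.10, adjusted p = 0.265).

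Desaturases and elongases did not move as a group, and Scd1 and Scd2 ran in opposite directions. Scd1 (chromosome 19, 44468941 to 44482199), a stearoyl-CoA desaturase, was the most abundant member per length, with 272, 286 and 330 FPKM in FO 1 to 3, 222, 297 and 263 in BDL 1 to 3 and 186, 238 and 205 in MZ 1 to 3. MZ lay below FO without overlap, and BDL overlapped with both. Scd1 was 1.41-fold lower in MZ relative to FO B cells (log2 -0.50, SE 0.15, adjusted p = 0.0358), a call lost without any one FO library, BDL 3, MZ 1 or MZ 3 (adjusted p between 0.0554 and 0.12). Scd2 (chromosome 19, 44368166 to 44381354) had 18.1, 18.4 and 16.1 FPKM in FO 1 to 3, 29.2, 34.8 and 26.3 in BDL 1 to 3 and 45.6, 52.9 and 33.1 in MZ 1 to 3. FO was lowest without overlap, while MZ 3 fell within the range of BDL.

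The means of Scd2 were 17.5 ± 1.24 (SD, n = 3) in FO, 30.1 ± 4.35 (SD, n = 3) in BDL and 43.8 ± 10.0 (SD, n = 3) in MZ B cells. Scd2 was 2.45-fold higher in MZ than in FO (log2 1.29, SE 0.18, adjusted p = 9.67e-04) and 1.70-fold higher in BDL than in FO B cells (log2 0.77, SE 0.18, adjusted p = 0.0373). The latter call was lost without any one FO or BDL library or MZ 1 (adjusted p between 0.0584 and 0.12). In BDL over MZ B cells its log2 fold change was -0.52 (SE 0.18, adjusted p = 0.0594, or 0.00745 with the replicate block). Scd1 and Scd2 are paralogs, how many reads they share was not measured, and exons of Scd2 overlap AC123853.2 on the same strand.

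Elovl6 (chromosome 3, 129235304 to 129341413), which elongates palmitate, rose from FO through BDL to MZ B cells at a low level. It had 0.744, 0.747 and 0.744 FPKM in FO 1 to 3, 1.15, 1.06 and 1.26 in BDL 1 to 3 and 1.55, 1.58 and 1.59 in MZ 1 to 3, approximately 255 to 266 fragments in FO, 387 to 474 in BDL and 507 to 610 in MZ libraries. The 3 subsets did not overlap. Elovl6 was 1.98-fold higher in MZ than in FO B cells (log2 0.98, SE 0.11, adjusted p = 3.88e-04). The log2 fold change was 0.57 in BDL over FO (SE 0.11, adjusted p = 0.0236), a call lost without any one FO library, BDL 1 or BDL 3 (adjusted p between 0.0535 and 0.0831). In BDL over MZ B cells it was -0.41 (SE 0.11, adjusted p = 0.0291), a call lost without BDL 1, BDL 2, MZ 1 or MZ 3 (adjusted p between 0.0547 and 0.0649), with a minimum of 1 FPKM (0.0642) and under quantile normalization (log2 -0.23, adjusted p = 0.2).

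Elovl5, which elongates polyunsaturated fatty acids, had 17.9 to 21.2 FPKM in FO, 20.9 to 28.4 in BDL and 22.0 to 32.4 in MZ B cells, with a log2 fold change of 0.43 in MZ over FO B cells (SE 0.17, adjusted p = 0.0973, or 0.0246 with the replicate block). Elovl1, an elongase of very long chains, had 13.1 to 15.2 FPKM in FO, 15.2 to 17.4 in BDL and 11.4 to 16.1 in MZ B cells, with a log2 fold change of 0.32 in BDL over MZ B cells (SE 0.13, adjusted p = 0.116, or 0.0239 with the replicate block). Exons of Elovl1 overlap the cell cycle gene Cdc20 on the other strand, whose log2 fold change in BDL over FO B cells was 0.70 (adjusted p = 0.0178). The part of Cdc20 reads in the Elovl1 values was not tested.

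The desaturases of polyunsaturated fatty acids were nearly silent. Fads1 had 0.107, 0.0637 and 0.0962 FPKM in FO 1 to 3, 0.496, 0.340 and 0.356 in BDL 1 to 3 and 0.411, 0.226 and 0.235 in MZ 1 to 3. These values stand for approximately 13 to 22 fragments in FO, 78 to 97 in BDL and 42 to 78 in MZ libraries, with FO below both other subsets without overlap. Without a minimum on the mean FPKM, the log2 fold change of Fads1 was 1.39 in BDL over FO (SE 0.21, adjusted p = 0.0108) and 1.02 in MZ over FO B cells (SE 0.21, adjusted p = 0.0113). Fads1 is shown by name in a chart that the study drew from these libraries, so its direction is not independent evidence. Fads2 had 0, 0.0122 and 0 FPKM in FO 1 to 3, 0.0258, 0.0200 and 0.0924 in BDL 1 to 3 and 0.0395, 0.0268 and 0.0565 in MZ 1 to 3. These stand for approximately 0 to 9 fragments per library, so each value rests on few fragments. FO lay below both other subsets without overlap. Without a minimum, Fads2 did not pass by limma in BDL over FO (adjusted p = 0.197) or in MZ over FO B cells (adjusted p = 0.135).

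The export pumps of sterol ran in opposite directions, with Abca1 falling and Abcg1 rising in MZ B cells. Abca1 (chromosome 4, 53043659 to 53172767), which loads cholesterol onto apolipoprotein A-I, had 20.8, 25.6 and 24.0 FPKM in FO 1 to 3, 12.6, 19.4 and 16.9 in BDL 1 to 3 and 8.55, 11.2 and 9.39 in MZ 1 to 3. The 3 subsets did not overlap, with FO highest and MZ lowest. The means were 23.5 ± 2.43 (SD, n = 3) in FO, 16.3 ± 3.43 (SD, n = 3) in BDL and 9.73 ± 1.37 (SD, n = 3) in MZ B cells. Abca1 was 2.40-fold lower in MZ relative to FO B cells (log2 -1.27, SE 0.17, adjusted p = 9.11e-04) and higher in BDL than in MZ B cells (log2 0.73, SE 0.17, adjusted p = 0.0151), the latter call lost without MZ 1 or MZ 3 (adjusted p = 0.0613 and 0.0517). In BDL over FO B cells its log2 fold change was -0.54 (SE 0.17, adjusted p = 0.099, or 0.0092 with the replicate block).

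Abcg1 (chromosome 17, 31194643 to 31252722), which passes cholesterol to lipoprotein particles, had 16.4, 15.6 and 15.6 FPKM in FO 1 to 3, 15.1, 17.9 and 15.8 in BDL 1 to 3 and 24.4, 31.8 and 21.9 in MZ 1 to 3. FO and BDL overlapped and MZ lay above both. Abcg1 was 1.62-fold higher in MZ than in FO (log2 0.69, SE 0.14, adjusted p = 0.00616) and lower in BDL than in MZ B cells (log2 -0.66, SE 0.14, adjusted p = 0.00818). Of the LXR receptor genes that drive both pumps, Nr1h2, the most abundant gene of its role per length, had 41.5, 41.0 and 39.7 FPKM in FO 1 to 3, 42.6, 29.4 and 42.1 in BDL 1 to 3 and 35.6, 31.1 and 41.0 in MZ 1 to 3. The 3 subsets overlapped, with BDL 2 and MZ 2 lowest, and log2 fold changes were between -0.19 and 0.07. Nr1h3 had 0.228, 0.180 and 0.433 FPKM in FO 1 to 3, 0.253, 0.179 and 0.217 in BDL 1 to 3 and 0.268, 0.120 and 0.350 in MZ 1 to 3, approximately 13 to 49 fragments per library, and the subsets overlapped.

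Stard4, which moves cholesterol between membranes and is an SREBP target, was lowest in MZ B cells. It had 4.67, 4.86 and 4.25 FPKM in FO 1 to 3, 4.86, 5.45 and 4.86 in BDL 1 to 3 and 3.85, 4 and 3.95 in MZ 1 to 3, with MZ below both other subsets. Stard4 had a log2 fold change of 0.35 in BDL over MZ (SE 0.08, adjusted p = 0.0146, lost without MZ 1 at 0.0576). In MZ over FO B cells it was -0.22 (SE 0.08, adjusted p = 0.0881, or 0.0365 with the replicate block).

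**Figure D4:**
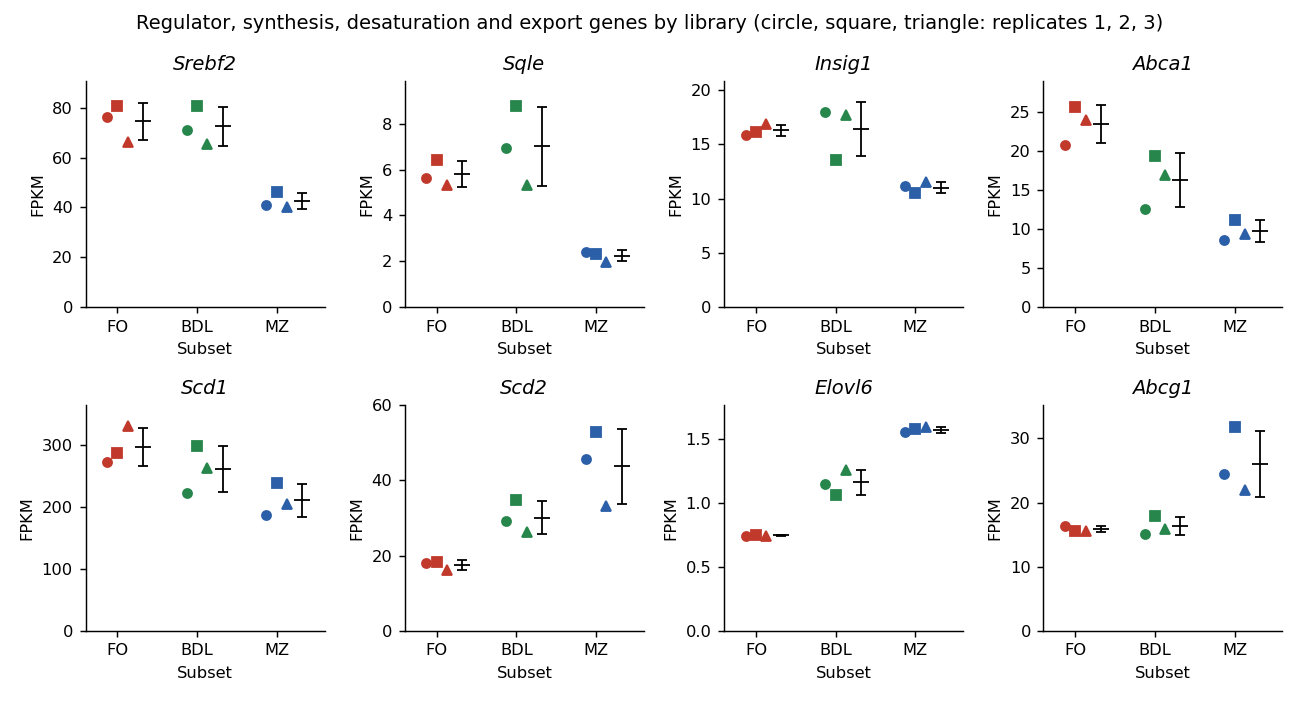
FPKM from 0 of Srebf2, Sqle, Insig1, Abca1, Scd1, Scd2, Elovl6 and Abcg1 in the 9 libraries (circle, square and triangle for replicates 1, 2 and 3), with the mean and SD of each subset in black (n = 3). MZ B cells are lowest for Srebf2, Sqle, Insig1 and Abca1, and highest for Scd2, Elovl6 and Abcg1.

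Other genes of the same pathways, 38 of 52 listed, were tested beside the members. In BDL over MZ B cells 12 of the 38 were higher and 2 lower at an adjusted p under 0.05, as compared to 16.5% and 11.6% of all rows. In MZ over FO B cells 4 were higher and 8 lower, as compared to 14.3% and 12.8% of all rows. In BDL over FO B cells 1 was higher and 0 lower, as compared to 6.04% and 1.68% of all rows. At an unadjusted p under 0.05 by limma, 7 were higher and 2 lower there, where 24.3% of all rows passed in either direction. Msmo1, which removes methyl groups from sterol precursors, had 6.89, 8.71 and 5.56 FPKM in BDL 1 to 3 and 3, 4.1 and 2.85 in MZ 1 to 3, without overlap. Msmo1 had a log2 fold change of 1.06 in BDL over MZ B cells (SE 0.18, adjusted p = 0.00361). In MZ over FO B cells the log2 fold change was -1.21 for Mylip, a ubiquitin ligase and LXR target (SE 0.23, adjusted p = 0.00564), and -1.12 for Abca7, a lipid transporter (SE 0.29, adjusted p = 0.0225).

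The other pathway gene that rose in BDL over FO B cells was Apoe, a lipid carrier and LXR target, with 37.3, 27.4 and 38.8 FPKM in FO 1 to 3, 69.6, 58.8 and 64.5 in BDL 1 to 3 and 65.2, 54.5 and 68.3 in MZ 1 to 3. BDL and MZ overlapped and FO lay below both, with a log2 fold change of 0.91 in BDL over FO B cells (SE 0.15, adjusted p = 0.0111). Apoe is also made by macrophages, and the summed myeloid genes were 2.56 to 4.81 FPKM in FO and 5.87 to 8.19 in BDL. Of the 5 myeloid genes, Emr1 (0.640 to 0.887 FPKM in FO, 3.13 to 3.88 in BDL and 0.536 to 0.765 in MZ B cells) and Itgam (0.659 to 0.881, 1.25 to 1.82 and 1.67 to 2.02) were above FO without overlap in BDL, while Lyz2, Csf1r and Cd14 overlapped between FO and BDL. In MZ B cells, Itgam and Csf1r were above FO without overlap, while Emr1, Lyz2 and Cd14 overlapped with FO. Their part in the Apoe values was not tested.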

How the data were processed

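RNA-seq of 9 libraries of sorted splenic B cells was analysed, 3 each of FO, BDL and MZ B cells, with subsets taken from the sample titles. The authors aligned the reads to mm9 with Tophat 2.1.0 and deposited FPKM per gene and library from Cufflinks. The Cufflinks version and the annotation are not given in the sources used here. By the labels the reads were single end and without strand, by the study's text the kit was stranded with 2 files for a sample, so that reads of overlapping genes on opposite strands may not be told apart. The authors' Cuffdiff comparisons were not used, and 0 columns of per-sample values were left out.

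FPKM were used without further scaling as log2(FPKM + 0.1), which understates fold changes of low genes. Rows were kept where the mean FPKM over the libraries reached 0.5 (11597 rows). limma 3.58.1 (R 4.3.3) was fitted to them by lmFit and eBayes with a trend, with all 9 libraries and with the subset as the only term. P-values are two-sided, with Benjamini-Hochberg adjustment over all rows tested. A member passed at an adjusted p under 0.05, and a change of at least 2-fold was a second threshold, as in the study's methods. The fit was tested on simulated data. No list was tested as a set.

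The title dates pair the libraries. For libraries of one date the correlation of the deviations from the subset means across genes was 0.147, 0.049 and -0.062 between BDL and FO, 0.1, 0.244 and 0.182 between BDL and MZ, and 0.024, 0.014 and 0.008 between MZ and FO for replicates 1 to 3. The date as a replicate block was an alternative, since the study's methods name no such term. The 3 sorts of a subset were separate pools of mice.

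Depth came from the steps between low FPKM of genes with a single long transcript, where 67.7% to 75.7% of the values came within 0.1 of whole fragments. It was 0.903 to 1.23 times that of FO 1. Smaller divisions of the step give whole numbers as well, so fragment numbers are approximate, and the read totals are unknown. Positions and exon overlaps came from GENCODE M1 on NCBIM37, and promoters from RefSeq on GRCm38.p6. The plots were made in Python 3.11.15 with matplotlib 3.10.9.

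The members and lists were chosen with earlier results of these data known. All 36 members are named. Values in every library are given for members past an adjusted p of 0.05 in at least 1 comparison and for the members with the highest and lowest mean of each role. Of 52 other pathway genes, the 3 with the largest changes past the threshold per comparison are named. Some genes that this rule names are not reported here.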

Additional observations from a re-analysis of the deposited data

How the results depend on the processing

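Over 17 other ways of processing or choosing libraries, and 1 more that was chosen after seeing the data (without the 3 libraries of the title date of BDL 2), no member past the threshold changed direction. Of the member and comparison pairs past an adjusted p of 0.05, 9 of 17 in BDL over MZ, 10 of 16 in MZ over FO and 0 of 2 in BDL over FO B cells passed under each of the 18. Srebf2, Sqle, Fdps, Idi1, Cyp51, Insig1 and Abcg1 passed under each of them in both comparisons with MZ B cells. Between BDL and FO B cells the count of 2 members became 1 with a minimum of 1 FPKM, 1 without the date of BDL 2, 7 with the replicate block, and 0 to 2 when single libraries were left out. Without a minimum, 1 member reached 2-fold there, Fads1, where 0 had. Between BDL and MZ B cells the count of 17 ranged from 10 (without MZ 1) to 19 when single libraries were left out. It was 12 with only the 6 libraries of the compared subsets, and 14 without a minimum or under upper quartile scaling. With the replicate block 22 members passed in BDL over MZ B cells (42.7% of all rows) and 22 in MZ over FO B cells (38.8% of all rows), and this paired fit lost no call of the unpaired one. Besides single libraries, other settings ended the calls of Acaca, Dhcr7, Sc5d, Fdft1, Stard4, Pmvk and Elovl6 in BDL over MZ B cells (adjusted p from 0.0504 to 0.2), of Hsd17b7, Sc5d, Lss and Srebf1 in MZ over FO B cells (0.0539 to 0.116), and of Elovl6 and Scd2 in BDL over FO B cells (0.0502 to 0.0872). The causes of these changes were not tested.

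Over all rows, 896 passed between BDL and FO B cells, 2378 with the replicate block and 335 to 1111 when single libraries were left out. Between BDL and MZ B cells 3255 passed, and 4952 with the replicate block. With 1 added in place of 0.1, the rows past 2-fold were 94 in place of 221 between BDL and FO and 674 in place of 1035 between MZ and FO B cells. Upper quartile scaling moved the median log2 fold change of all rows in BDL over MZ B cells from 0.06 to -0.04. Each comparison rests on 3 libraries per subset, and the table holds no counts.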
